A study of Rattus norvegicus with 11 samples.

Results

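Collagen processing enzymes were examined in bladder tissues of female Sprague-Dawley rats with partial bladder outlet obstruction (PBOO). The group held 10 named genes: the prolyl hydroxylases P4ha2, P4ha3 and Leprel1, the lysyl hydroxylases Plod1, Plod2 and Plod3, the chaperone Serpinh1, and the proteins of propeptide removal Bmp1, Pcolce and Adamts2. All 10 had a row among the 18507 genes of the table. Of these, 9 were found under the given symbol and Leprel1 was found as P3h2, its current RefSeq symbol, which is used from here on. PBOO had been made by tying a suture around the bladder neck and urethra, and the labels call the controls normal, which the methods describe as rats with an abdominal incision only. RNA of bladder tissue was sequenced in 3 normal and 3 PBOO samples of week 4 and in 3 normal and 2 PBOO samples of week 5. The columns of the normal week 5 samples carry the name adult, and the labels give no age, while the methods give all rats of the study the same age of under a year. All column names of week 4 end in Input and none of week 5 does. What Input stands for is not stated. Whether animals were pooled, and which part of the bladder wall was taken, is not stated. No genetic change was named for any group. The study describes the replicates as biological. The third PBOO sample of week 5 was left out by the study for quality control during library construction.

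Collagen chains are modified and folded in the endoplasmic reticulum before they leave the cell. Prolyl 4-hydroxylases, with an alpha subunit such as P4ha2 or P4ha3, hydroxylate prolines and so stabilise the triple helix, while prolyl 3-hydroxylases such as P3h2 modify fewer prolines and P3h2 acts mainly on basement membrane collagen. Lysyl hydroxylases make the hydroxylysines that carry sugars and crosslinks. Plod2 hydroxylates lysines of the telopeptides, Plod1 those of the helix, and Plod3 also transfers sugars. Serpinh1 (HSP47) is the collagen-specific chaperone. After secretion Bmp1 cleaves the C-propeptide, Pcolce enhances that cleavage, and Adamts2 cleaves the N-propeptide. In the bladder wall fibrillar collagen lies mainly in the lamina propria and between the muscle bundles.

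Promoter sequences were compared because several of these genes, Plod2 and the P4ha genes among them, are textbook targets of hypoxia-inducible factors. RefSeq (GRCr8) promoters were found for 9 of the 10 genes, all but Bmp1. The 250 bases before the annotated start are printed for the 3 lysyl hydroxylases, of which Plod1 and Plod2 were called in the expression data and Plod3 was not, and for P4ha2, which held the most matches. Capitals mark the core letters of the hypoxia response element, ACGTG or GCGTG, on either strand.
Plod1 (chr5:163650738-163650987, minus strand): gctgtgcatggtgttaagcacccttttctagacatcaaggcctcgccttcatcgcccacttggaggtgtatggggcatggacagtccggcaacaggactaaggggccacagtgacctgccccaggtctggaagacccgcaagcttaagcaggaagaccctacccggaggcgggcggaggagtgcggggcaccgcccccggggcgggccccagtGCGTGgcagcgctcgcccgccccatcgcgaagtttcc
Plod2 (chr8:101964068-101964317, plus strand): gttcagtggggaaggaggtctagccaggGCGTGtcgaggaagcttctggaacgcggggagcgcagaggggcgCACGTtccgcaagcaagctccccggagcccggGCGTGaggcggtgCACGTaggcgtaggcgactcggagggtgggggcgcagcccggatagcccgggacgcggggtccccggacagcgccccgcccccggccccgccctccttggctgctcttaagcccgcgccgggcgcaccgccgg
Plod3 (chr12:25323632-25323881, minus strand): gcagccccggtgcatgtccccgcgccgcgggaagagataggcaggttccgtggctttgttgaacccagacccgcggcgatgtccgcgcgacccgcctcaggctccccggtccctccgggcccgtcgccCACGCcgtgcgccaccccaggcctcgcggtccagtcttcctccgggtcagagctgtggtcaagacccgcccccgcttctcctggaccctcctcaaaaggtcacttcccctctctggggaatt
P4ha2 (chr10:38743644-38743893, plus strand): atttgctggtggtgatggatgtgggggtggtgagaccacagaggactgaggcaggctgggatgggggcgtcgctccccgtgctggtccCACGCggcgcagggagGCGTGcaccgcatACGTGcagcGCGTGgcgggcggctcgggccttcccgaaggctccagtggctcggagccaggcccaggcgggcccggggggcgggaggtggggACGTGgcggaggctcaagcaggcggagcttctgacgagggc

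The core was found 5 times in the P4ha2 window, 4 times in that of Plod2 and once in those of Plod1, Plod3, P3h2 and Pcolce. The windows of Serpinh1, P4ha3 and Adamts2 held no match. The counted window of Serpinh1 lay mostly inside the annotated gene, and that of P4ha3 had 238 bases outside it. Both windows are kept in the counts that follow. In all, 6 of the 9 windows held the core, against 36.7% of the 33469 promoters of the table. A GC box (GGGCGG, either strand) was in 8 of the 9 windows, against 30.5% of all promoters. The letters CCACG were in 5 of the 9, against 27.2% of all, and in places they overlap the core. CCAAT was in none of the 9 windows against 34.0% of all promoters, and TATAAA was in none against 12.9%. The comparison was with all promoters, which were not matched to the 9 windows for base content. Whether the 9 windows differ in these letters from promoters of similar base content was therefore not tested. These matches are descriptions of letters and not of bound sites.

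Expression was given as FPKM, a count of fragments scaled by exon length and by the mapped total of the library, so that levels can be set side by side between genes. Sums of the columns ran from 424961 to 564343 FPKM, and the depth in reads is unknown. Markers of the muscle wall and the urothelium were present in all groups, apart from Krt7, which was listed at 0 in every week 4 sample. Altogether 4871 genes were listed at 0 in every week 4 sample but not at week 5, against 403 in the other direction, so levels are compared within a week only. The PBOO samples of week 5 stood apart in cell type markers. The summed FPKM of 8 smooth muscle markers was 992 to 1856 in them against 24777 to 29160 in the normal samples of that week. For 8 fibroblast markers the sums were 180 to 253 against 936 to 1144, for 8 urothelial markers 7115 to 7445 against 6081 to 7426, and for 8 leukocyte markers 194 to 1084 against 28.4 to 73.5. The urothelial sum joins markers that moved in opposite directions. Mean FPKM in PBOO against normal tissues of week 5 was 1820 against 134 for Krt5 and 875 against 286 for Cldn4. It was 324 against 1704 for Upk2 and 0.661 against 66.9 for Krt20. At week 4 the smooth muscle sum was 51104 to 82470 in PBOO and 25511 to 27687 in normal tissues, the fibroblast sum 2916 to 4638 and 1189 to 5055, and the urothelial sum 2946 to 3696 and 5037 to 6171. The smooth muscle markers did not rise alike. Mean FPKM in PBOO against normal tissues of week 4 was 22070 against 4421 for Actg2, 3112 against 2273 for Myh11 and 370 against 364 for Smtn. Normal replicate 1 of week 4 held the lowest of the week 4 fibroblast sums. In bulk tissue, fewer cells of a type cannot be told apart from less RNA per cell.

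Plod2, Plod1 and P4ha3 were the processing genes that were at least 2-fold higher in PBOO bladder tissues at week 4 with an unadjusted p under 0.05. Genes were compared by limma on log2(FPKM + 0.1), a scale that understates the change of low genes. None of the 10 passed an adjusted p (Benjamini-Hochberg over the 11320 genes tested) under 0.05. The 3 calls of 10 stand beside 2.46% of all genes called higher by the same rule, and the adjusted rule called 0.265% of all genes higher. With no demand on the fold, 6 of the 10 had an unadjusted p under 0.05 in the higher direction, against 5.76% of all genes. None was lower by that rule, against 26.2% of all genes, nor by the 2-fold rules, which called 2.45% (unadjusted) and 0.106% (adjusted) of all genes lower. The median log2 fold change of the 10 was 0.77, against -0.25 for all genes tested. Scaling the samples by median ratios brought the median of all genes to -0.01 and that of the 10 to 1.02. Without normal replicate 1 of week 4 the medians were 0.37 for the 10 and -0.26 for all genes. The smooth muscle marker sum was also higher in PBOO at week 4, and its part in these values was not tested.

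At week 5 most members were lower in PBOO tissues. P3h2, Plod1, Plod2, Serpinh1, Pcolce and Adamts2 were downregulated in PBOO bladder tissues past an adjusted p of 0.05 and 2-fold, which is 6 of the 9 members tested and stands beside 11.4% of the 13685 genes tested. The unadjusted rule called the same number, 6, beside 12.6% of all genes, and no member was higher, beside 7.91% of all genes at an adjusted p. P4ha2, Plod3 and Bmp1 did not pass in either direction, and P4ha3 fell under the filter of a mean of 0.5 FPKM and was not tested. The median log2 fold change of the 9 was -2.04, against 0.12 for all genes. At a 4-fold threshold, the fold the study's results use for week 5, taken here with an unadjusted p, 5 of the 9 were lower, against 6.88% of all genes. The smooth muscle and fibroblast marker sums fell with these genes, with 8 of 8 and 7 of 8 markers past the adjusted threshold, none of them at 0 in any group. Their part in the result was not tested.

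**Figure D1:**
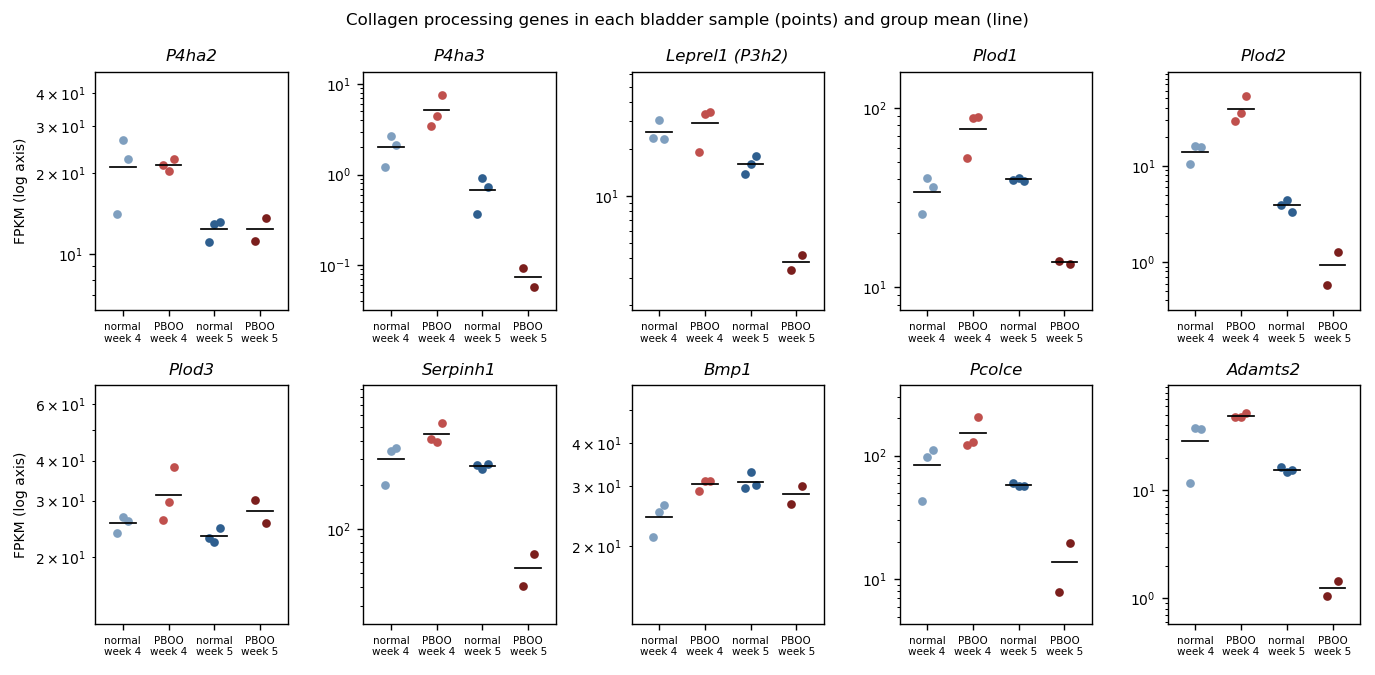
FPKM of the 10 collagen processing genes on log axes, 1 panel a gene with its own range, with points for the samples of the 4 groups and lines for the group means. Within week 4 Plod2 lay at 29.2 to 52.7 in PBOO and 10.5 to 16.2 in normal samples, and within week 5 at 0.576 to 1.28 in PBOO and 3.35 to 4.37 in normal samples.

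**Figure D2:**
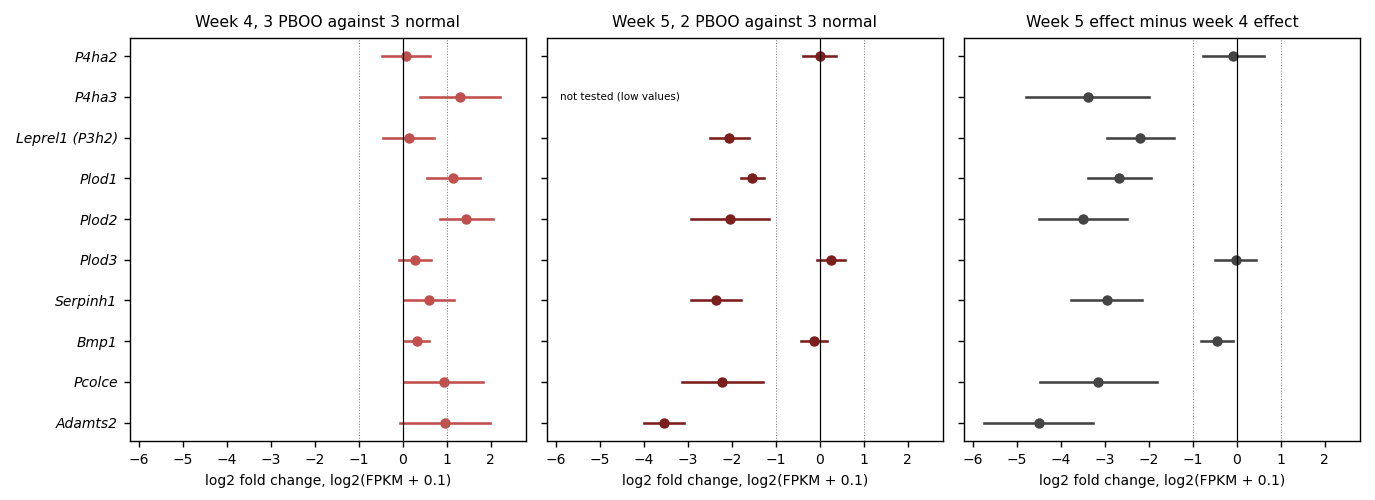
Log2 fold changes of PBOO against normal tissues at each week and the difference between the weeks (limma, points with 95% confidence intervals), with dotted lines at 2-fold. At week 5 Adamts2 lay furthest down at -3.54, while P4ha2, Plod3 and Bmp1 lay between -0.45 and 0.33 in all 3 panels.

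Among the prolyl hydroxylases, P4ha2 differed in neither week beyond its replicates. Its FPKM at week 4 was 14.1, 26.7 and 22.7 in normal and 21.6, 20.3 and 22.7 in PBOO tissues. In the week 5 samples it was 11.1, 12.9 and 13.2 in normal and 11.2 and 13.6 in PBOO tissues. The groups overlapped in both weeks. The 95% confidence interval of the log2 fold change ran from -0.47 to 0.61 at week 4 and from -0.39 to 0.38 at week 5, so a 2-fold change lay outside it both times. P4ha2 held the most hypoxia core letters of the 9 promoters and Plod2 held the next most. A link between these letters and expression was not tested.

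P4ha3, the least abundant of the 10 in all 4 groups, was 1.23, 2.67 and 2.15 FPKM in normal and 3.42, 4.50 and 7.66 in PBOO tissues at week 4. Every PBOO sample lay above every normal sample, and the log2 fold change was 1.31 (SE 0.39, limma unadjusted p = 0.0115, adjusted p = 0.0881). At week 5 the values were 0.365, 0.918 and 0.738 in normal and 0.0915 and 0.0573 in PBOO tissues, again without overlap but in the other direction. Fitted without the filter on low values, the week 5 log2 fold change was -2.08 (SE 0.42, limma adjusted p = 0.0227). With levels this low the fitted size depends on the added 0.1 FPKM.

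P3h2 was called at week 5 and not at week 4. At week 4 it was 23.4, 30.8 and 23.3 FPKM in normal and 19.2, 33.4 and 34.7 in PBOO tissues, which overlap, with a log2 fold change of 0.14 and an interval from -0.45 to 0.72. Its week 5 levels were 13.9, 16.1 and 17.9 in normal and 3.36 and 4.22 in PBOO tissues. That fall by 2.05 on the log2 scale (SE 0.18, limma adjusted p = 0.00124) left no overlap between the groups.

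Plod2, the telopeptide lysyl hydroxylase, was called in both weeks, at week 4 by the unadjusted rule alone. Its FPKM at week 4 was 10.5, 16.2 and 15.5 in normal and 29.2, 35.5 and 52.7 in PBOO tissues. The lowest PBOO sample lay above the highest normal one, and the log2 fold change of 1.45 (SE 0.26) had an unadjusted p of 0.000783 and an adjusted p of 0.0538 by limma. The week 5 levels of Plod2 were 3.94, 4.37 and 3.35 in normal and 0.576 and 1.28 in PBOO tissues. It fell by 2.04 on the log2 scale (SE 0.35, limma adjusted p = 0.0107), and the adjusted p was 0.0532 without normal replicate 1 of week 5.

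Plod1, the helical lysyl hydroxylase, was called in the same directions and by the same rules. In the week 4 samples Plod1 was 25.5, 40.9 and 36.0 FPKM in normal and 52.8, 87.4 and 88.5 in PBOO tissues, with a log2 fold change of 1.15 (SE 0.25, limma unadjusted p = 0.00278, adjusted p = 0.0629). By week 5 its levels were 39.8, 40.7 and 39.2 in normal and 14.1 and 13.5 in PBOO tissues, and it fell by 1.53 on the log2 scale (SE 0.11, limma adjusted p = 0.000589). The replicates were close to each other at week 5, and the groups overlapped in neither week.

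Plod3 passed no threshold. At week 4 it was 23.7, 26.7 and 25.9 FPKM in normal and 26.0, 29.7 and 38.2 in PBOO tissues, with a log2 fold change of 0.28 and an interval from -0.09 to 0.65. Its FPKM at week 5 was 22.9, 22.3 and 24.6 in normal and 30.0 and 25.6 in PBOO tissues. Both PBOO samples then lay above the normal ones, as in 35.3% of all genes tested, and the log2 fold change of 0.25 (interval -0.06 to 0.57, limma adjusted p = 0.182) was in the opposite direction to those of Plod1 and Plod2.

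The proportions of the lysyl hydroxylases do not depend on the scaling of a library. Plod2 made up 17.6, 19.4 and 20.01% of the summed FPKM of the 3 genes in normal and 27.1, 23.3 and 29.4% in PBOO tissues at week 4. Its share at week 5 was 5.91, 6.50 and 4.99% in normal and 1.29 and 3.17% in PBOO tissues. Plod3 made up 31.8 to 39.7% in normal and 19.5 to 24.1% in PBOO tissues at week 4, and 33.1 to 36.6% and 63.5 to 67.2% at week 5. Plod1 was the largest of the 3 in the first 3 groups, from 42.7 to 60.4%, and made up 31.5 and 33.4% in the PBOO samples of week 5, behind Plod3. None of the 3 shares overlapped between normal and PBOO tissues in either week, although those of Plod1 at week 4 came as close as 48.8% in normal and 48.9% in PBOO tissues. The shares are parts of 1 sum, so their separations are not independent of each other. Mean FPKM in normal against PBOO tissues of week 5 was 23.2 against 27.8 for Plod3, 39.9 against 13.8 for Plod1 and 3.89 against 0.928 for Plod2. A two-sided exact permutation test of 3 against 3 samples cannot give a p under 0.10, and of 3 against 2 none under 0.20, so the shares are given as descriptions.

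**Figure D3:**
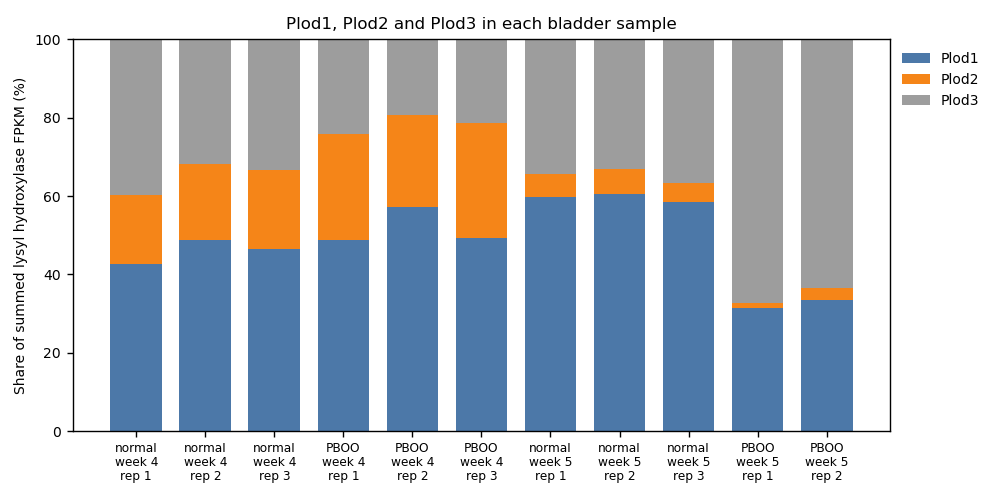
Stacked bars, from 0 to 100%, of the share of Plod1, Plod2 and Plod3 in their summed FPKM in each of the 11 bladder samples. Plod3 reached 63.5 and 67.2% in the PBOO samples of week 5, and Plod2 was highest in the PBOO samples of week 4, at 23.3 to 29.4%.

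Serpinh1 was the most abundant of the 10 genes in every group. At week 4 it was 201, 339 and 360 FPKM in normal and 413, 392 and 530 in PBOO tissues. The groups did not overlap, but the log2 fold change of 0.60 (SE 0.24, limma unadjusted p = 0.0417, adjusted p = 0.143) stayed under 2-fold. At week 5 it was 275, 259 and 276 in normal and 40.8 and 67.7 in PBOO tissues, and it fell by 2.36 on the log2 scale (SE 0.23, limma adjusted p = 0.00171).

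Of the propeptide genes, Bmp1, the C-proteinase, had the smallest differences. It was 21.3, 25.0 and 26.4 FPKM in normal and 28.9, 31.0 and 31.0 in PBOO tissues at week 4. The groups did not overlap, with a log2 fold change of 0.33 (SE 0.12, limma unadjusted p = 0.0274, adjusted p = 0.120). At week 5 it was 29.5, 32.8 and 30.2 in normal and 26.6 and 30.0 in PBOO tissues, which overlap, and the interval of its log2 fold change ran from -0.43 to 0.17.

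Pcolce, the enhancer of Bmp1, was called at week 5, where Bmp1 was not. It was 42.7, 98.0 and 111 FPKM in normal and 123, 129 and 206 in PBOO tissues at week 4, with a log2 fold change of 0.93 (SE 0.38, limma unadjusted p = 0.0438, adjusted p = 0.146). At week 5 it was 60.3, 57.4 and 56.9 in normal and 7.89 and 19.7 in PBOO tissues. The PBOO samples differed from each other but both lay far under the normal ones, and the fall by 2.21 on the log2 scale (SE 0.37) passed at a limma adjusted p of 0.00962.

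Adamts2, the N-proteinase, showed the largest fall of the 10 at week 5. It was 16.5, 14.8 and 15.3 FPKM in normal and 1.05 and 1.46 in PBOO tissues, a fall by 3.54 on the log2 scale (SE 0.18, limma adjusted p = 0.000289). At week 4 it was 11.6, 37.7 and 37.5 in normal and 47.8, 48.3 and 52.2 in PBOO tissues, with a log2 fold change of 0.95 (SE 0.43, limma unadjusted p = 0.0633, adjusted p = 0.177). Normal replicate 1 stood far under the other samples there, and without it the week 4 log2 fold change of Adamts2 was 0.39. The same sample was the lowest normal sample of week 4 in 9 of the 10 genes, the exception being P3h2. Without it 2 of the 10 genes were called at week 4, Plod2 at 1.25 and P4ha3 at 1.01 on the log2 scale, while Plod1 was at 0.95, Pcolce at 0.50 and Serpinh1 at 0.34.

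Counting samples rather than p-values, 7 of the 10 genes did not overlap between the groups at week 4, all with PBOO higher, against 6.63% of all genes tested. None was separated with PBOO lower, against 34.9% of all genes. At week 5, 6 of the 9 tested genes were separated with PBOO lower, against 25.0% of all genes. Serpinh1, Pcolce and Plod1 led in the first 3 groups, with no overlap between any of these neighbours. The order was another in the PBOO samples of week 5, where Serpinh1 was followed by Bmp1 and Plod3, which overlapped, then by Pcolce, Plod1 and P4ha2, each overlapping the next. P3h2 came after them, then Adamts2 and Plod2, which overlapped, and P4ha3 was last. The summed FPKM of the 10 genes was 375 to 660 in normal and 764 to 1063 in PBOO tissues at week 4, and 461 to 477 and 136 to 177 at week 5.

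The difference of the PBOO effect between the weeks was tested in a fit over all 11 samples. In 7 of the 10 genes the effect was lower at week 5 than at week 4 past an adjusted p of 0.05, against 13.5% of the 11296 genes tested. None was higher at week 5, against 26.5% of all genes. The difference on the log2 scale was -4.50 for Adamts2, -3.49 for Plod2, -3.39 for P4ha3, -3.14 for Pcolce, -2.96 for Serpinh1, -2.67 for Plod1 and -2.19 for P3h2, with limma adjusted p-values between 0.000225 and 0.00286. Bmp1 differed by -0.45 (limma adjusted p = 0.0509), and P4ha2 and Plod3 by -0.08 and -0.03. Week and any difference in how the weeks were sequenced or quantified cannot be told apart across weeks, and each effect was measured against the normal samples of its own week.

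The fibrillar collagen substrates were also lower in PBOO tissues at week 5. The summed FPKM of Col1a1, Col1a2 and Col3a1, the chains of the main fibrillar collagens, was 561, 1683 and 1882 in normal and 2682, 1848 and 2409 in PBOO tissues at week 4, which overlap. At week 5 it was 1495, 1431 and 1176 in normal and 92.6 and 112 in PBOO tissues. Set against this sum, Adamts2 overlapped between the groups, with 1.11, 1.04 and 1.304 FPKM per 100 FPKM of these collagens in normal and 1.13 and 1.31 in PBOO tissues at week 5. At week 4 it was 2.07, 2.24 and 1.99 in normal and 1.78, 2.61 and 2.17 in PBOO tissues, so the low normal replicate 1 was low in both. The other members except P4ha3 were higher per collagen in the PBOO samples of week 5, without overlap. The ratio of the group means was 2.62 for Serpinh1, 3.04 for Pcolce, 3.10 for Plod2 and P3h2, 4.62 for Plod1, 12.2 for Bmp1, 13.1 for P4ha2 and 16.0 for Plod3. At week 4 all members but P4ha2, whose ratio was 0.536, overlapped on this scale. These ratios combine 2 levels and carry no test. The collagen sum was lower in PBOO tissues at week 5. A gene of unchanged FPKM, or one that fell by less than the sum, is therefore higher per collagen there by arithmetic. P4ha2 is a gene of the first kind, with week 5 means of 12.4 FPKM in both groups. Serpinh1 is one of the second kind, with week 5 means of 270 FPKM in normal and 54.3 in PBOO tissues. The share of all genes without overlap on this scale was not computed. P3h2 acts mainly on basement membrane collagen, which this sum leaves out. At week 5 the log2 fold change of P3h2 was -2.05. The median of the 4 collagen IV genes tested was -1.27, with a range from -2.28 to -0.997.

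**Figure D4:**
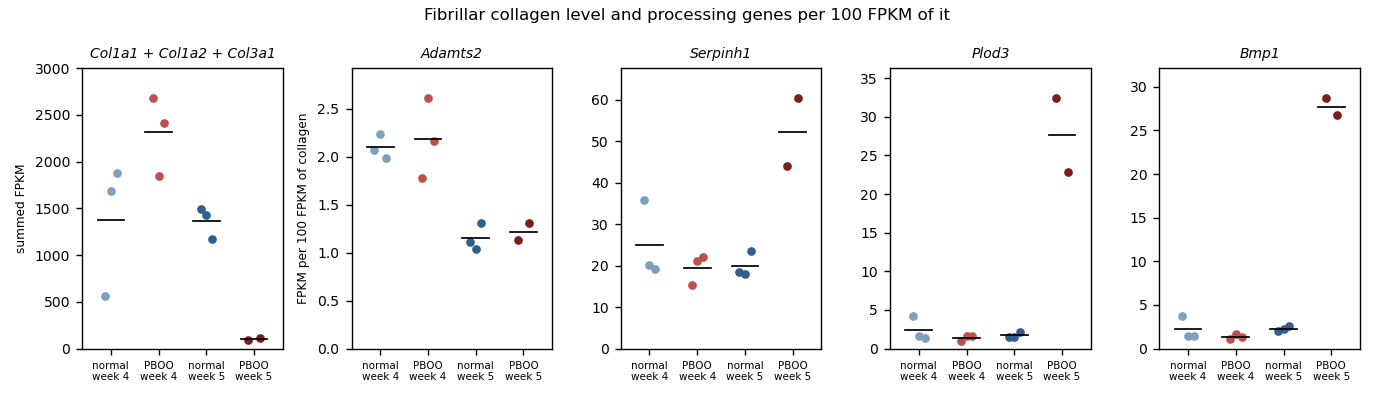
Summed FPKM of Col1a1, Col1a2 and Col3a1 (first panel) and FPKM of 4 processing genes per 100 FPKM of that sum, with points for samples and lines for group means on linear axes from 0. Adamts2 lay at 1.04 to 1.31 in all week 5 samples, while Plod3 and Bmp1 lay at 22.9 to 32.4 in PBOO and at 1.53 to 2.57 in normal tissues of week 5.

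In the rest of the pathway, 21 of 24 other processing and crosslinking genes were tested at week 4, and 3 passed the unadjusted 2-fold rule, all higher, beside 2.46% of all genes higher. These were the lysyl oxidases Loxl2, Lox and Loxl1, which form the crosslinks on lysines that Plod enzymes may have hydroxylated. Their log2 fold changes were 2.23, 2.10 and 2.07, with limma adjusted p-values of 0.0840, 0.0765 and 0.0538. PBOO replicate 3 was the highest sample in all 3, with Loxl2 at 119 FPKM against 18.3 and 42.2 in the other PBOO samples. With 1 sample left out, the log2 fold changes ran from 1.53 to 2.88, 1.47 to 2.47 and 1.63 to 2.48. Of 9 tested fibrillar collagen genes 1 passed, Col5a1 at 1.28 (limma adjusted p = 0.0483), and of 2 tested collagen IV genes Col4a1 passed at 1.70 (limma adjusted p = 0.0483). Col1a1, Col1a2 and Col3a1, at 0.90, 0.95 and 0.92, did not pass, and without normal replicate 1 of week 4 they were at 0.32, 0.32 and 0.38. At week 5, 9 of 21 other processing genes, 5 of 9 fibrillar genes and 2 of 4 collagen IV genes were lower past the adjusted 2-fold rule, beside 11.4% of all genes, and none was higher. The log2 fold change was -4.13 for Col1a2, -3.80 for Col1a1, -3.56 for Col3a1, -3.16 for Col5a1 and -2.89 for Col5a2. It was -3.99 for PCOLCE2, a relative of Pcolce, -3.24 for Loxl1 and -2.94 for Loxl2. PCOLCE2 was at 0.137 and 0.0378 FPKM in the PBOO samples, and its log2 fold change was -1.81 with 1 FPKM added in place of 0.1. Lox, at -1.69, did not pass the adjusted threshold (limma adjusted p = 0.0674).

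The genes whose pattern was most like the mean of 9 members were sought among 10672 genes averaging 1 FPKM or more, after each week's mean had been removed from the log2 values. Among the highest Pearson correlations over the 11 samples were those of Fkbp10 (r = 0.988), Plac9 (0.986), Sparc (0.984) and Rab31 (0.975). Fkbp10 is a collagen chaperone of the endoplasmic reticulum and Sparc a collagen-binding matrix protein. Col3a1, Col1a2 and Col1a1 had 0.956, 0.948 and 0.943. The points share their libraries and the PBOO contrast, so these values describe likeness in this table. Among members, with group means removed, Serpinh1 and Pcolce varied most alike over the 11 samples (r = 0.991), and Plod3 and Bmp1 least (r = 0.183). Normal replicate 1 of week 4 was low in both Serpinh1 (201 FPKM, against 339 and 360) and Pcolce (42.7, against 98.0 and 111). The correlation without that sample was not computed.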

How the data were processed

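Bladder RNA of 11 samples was measured by paired-end sequencing on a HiSeq4000. The authors trimmed reads with SeqPrep and Sickle, mapped them with HISAT2, assembled transcripts with StringTie and computed FPKM values with featureCounts, and they deposited these FPKM values as 1 table. The submitters' processing notes name the build mm10, a mouse build, for these rat samples, and the annotation and strand are not given in the sources used here. FPKM depends on exon models and on the other RNA in a library, and read depth is unknown. Low values did not fall on whole reads, so no count test was run.

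Values were used without further scaling. In R 4.3.3 with limma 3.58.1 (lmFit, eBayes with a trend), log2(FPKM + 0.1) was compared between PBOO and normal tissues within each week, leaving out genes whose mean was under 0.5 FPKM. The difference between weeks was a contrast over all 11 samples. p-values were adjusted by Benjamini-Hochberg over all genes tested. A call needed a 2-fold change with either an adjusted or an unadjusted p under 0.05, the adjusted rule being that of the study's methods. The study's results give p without naming an adjustment, and the unadjusted rule was added beside it. The fit was checked on simulated data. Replicates of the same group shared no identical value above 0, and other pairs of samples were not compared. Groups came from the sample labels, and no column was left out.

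All 10 members are named, with every other collagen pathway gene past the unadjusted rule up to 8 a week by size, Col1a1, Col1a2, Col3a1 and Lox, and the 5 most similar genes, of which 1 is not reported here. The members and lists were chosen with earlier results of these data known. Alternatives were other pseudocounts (1 and 0.01), no filter, median-ratio or quantile scaling, no trend, a replicate block, both weeks in 1 fit, a 4-fold threshold at week 5 and leaving out each sample.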

Additional observations from a re-analysis of the deposited data

Results flagged for a closer look

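The PBOO effect differed between week 5 and week 4 for 7 of the 10 genes by the interaction term of the limma fit over all 11 samples, each with a lower effect at week 5, as had 13.5% of the 11296 genes tested, while 26.5% had a higher one. The difference, week 5 effect minus week 4 effect on the log2 scale, was -2.96 for Serpinh1 (adjusted p = 0.00026), -3.14 for Pcolce (adjusted p = 0.00286), -2.67 for Plod1 (adjusted p = 0.000225), -4.50 for Adamts2 (adjusted p = 0.000272), -2.19 for P3h2 (adjusted p = 0.001), -3.49 for Plod2 (adjusted p = 0.000341) and -3.39 for P4ha3 (adjusted p = 0.00252). The smooth muscle marker sum was higher in PBOO tissues at week 4 and lower at week 5, and its part in these differences was not tested.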

How the results depend on the processing

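At week 4 the number of members called higher at an unadjusted p and 2-fold, 3 as reported, was 5 under median-ratio scaling and 5 under quantile normalization, and 2 to 5 with 1 sample left out. At an adjusted p it was 0 as reported, 2 with the replicate block (Plod1 and Plod2), 2 with both weeks in 1 fit, and 0 to 3 with 1 sample left out, the 3 being reached without PBOO replicate 1 of week 4. At week 5 the number called lower at an adjusted p stayed between 5 and 7, and in the difference between weeks between 7 and 8. For the rest of the pathway at week 4, 2 genes were higher at an adjusted p, against 0 with no filter, 0 under median-ratio scaling, 0 without a trend, 1 with the block and 5 with both weeks in 1 fit, and 0 to 6 with 1 sample left out. At an unadjusted p 5 were higher, against 8 under quantile normalization and 5 to 8 with 1 sample left out. With 1 sample left out 0 to 1 were lower at an adjusted and 0 to 1 at an unadjusted p at week 4, and 0 to 1 higher in the difference between weeks. The cause of these shifts was not tested.

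Signs changed for PCOLCE2, P4ha2, P3h2 and Plod3, none of which had passed in the comparison concerned. PCOLCE2 at week 4 (-0.13) was 0.12 under median-ratio scaling and 0.037 under quantile normalization, and ran from -1.11 to 0.36 with 1 sample left out. With 1 sample left out, P4ha2 at week 4 ran from -0.19 (without normal replicate 1) to 0.26, and P3h2 at week 4 from -0.012 (without PBOO replicate 3) to 0.41. P4ha2 at week 5 was 0.040 with the replicate block and -0.15 to 0.14 with 1 sample left out. In the difference between weeks Plod3 was 0.015 with the block and -0.15 to 0.13 with 1 sample left out, and P4ha2 then ran from -0.27 to 0.19. With group means removed, same-numbered samples of week 4 correlated at 0.15, -0.02 and 0.23, and differently numbered ones at -0.21 to 0.094. These values do not settle whether the numbers pair samples. The methods name no pairing of PBOO and control rats, and the column names of week 4 carry no matching numbers. The main fits took no pairing, and the block was an alternative. The block moved the calls over all genes from 42 to 55 at an adjusted p at week 4 and from 2637 to 2319 at week 5. The adjusted p of Bmp1 in the difference between weeks was between 0.00754 and 0.130 over its 18 alternatives. Read depth is unknown, which limits what the low values of P4ha3 can show.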
